A study of Homo sapiens with 6 samples.

Results

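PC9-BrM4, a subline of the human lung cancer line PC9, was compared with PC9 itself, with 2 libraries for each line (4 of the 6 libraries sequenced). Genes entered the comparison where the deposited abundance was at least 1 TPM (a share of the library's transcripts, scaled for gene length) in 2 or more of these 4 libraries, which left 13862 of 26485 genes. PC9 is a lung adenocarcinoma line that carries an activating EGFR mutation. Per the labels, the cells of both lines were grown under conventional culture conditions, total RNA was extracted, and stranded messenger RNA libraries were sequenced. The 2 remaining libraries, labelled PC9-AMG, entered only the estimate of the spread. The literature describes PC9-BrM4 as a derivative selected for growth in the brain of mice, which the labels do not state. Whether it is 1 clone or a mixed population, and how many passages separate it from PC9, is not stated in the labels. Since no label says that replicates came from different cultures, the p-values here reflect the spread among these libraries alone, which may be technical.

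Lung adenocarcinoma is an epithelial cancer that often spreads to the brain. To settle there, tumor cells leave the primary site, cross the vessels of the brain and grow against a tissue made of neurons and glia, where plasmin from the stroma can kill them. Cells that survive are known to use adhesion molecules such as L1CAM to spread along capillaries, and inhibitors of proteases to limit plasmin. Keratins form the filaments of epithelial cells, and the set a cell makes marks its type: KRT7, KRT8, KRT18 and KRT19 belong to simple epithelia such as the lung surface, and KRT5, KRT6A and KRT14 to layered, squamous epithelia.

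The aligned sequence behind the libraries was estimated at 3.42 and 2.66 gigabases for PC9 and at 3.13 and 3.84 gigabases for PC9-BrM4. The median absolute log2 difference across genes was 0.0612 between the PC9 libraries and 0.0864 between the PC9-BrM4 libraries, against 0.2075 to 0.228 between libraries of different lines. All 7 epithelial markers examined were present in each library, with summed levels of 9759 and 9785 TPM in PC9 and 7890 and 8053 TPM in PC9-BrM4. The lung lineage markers NKX2-1, SFTPA1, SFTPA2, SFTPC and SCGB1A1 were listed at 0 in all 4 libraries, so the lung origin of the cells is carried by the labels and not by these genes. Of 8 neuronal markers 3 were at 0 in all 4 libraries and 2 were tested, 1 of them (TUBB3) higher and 1 (MAP2) lower, with a summed level of 122 to 131 TPM in PC9 and 138 to 146 TPM in PC9-BrM4. The neuronal markers RBFOX3, NEFM and STMN2, the astrocyte marker AQP4, the oligodendrocyte markers MOG, OLIG1 and OLIG2 and the microglial markers AIF1 and TMEM119 were listed at 0, and GFAP did not exceed 0.219 TPM. Other markers of these brain cells were present in both lines, among them MBP, at 28.3 to 33.2 TPM and called higher, ALDH1L1, at 14.8 to 17.2 TPM and not called, and CD68, at 41.1 to 49.2 TPM and called lower. Of 6 fibroblast markers 3 (DCN, LUM and COL1A2) were listed at 0, and COL1A1 was the 1 tested, at 3.68 to 5.02 TPM and not called. Of 6 endothelial markers CLDN5 was listed at 0, and the 2 tested were called lower, PECAM1 from 2.03 and 1.88 TPM to 1.09 and 0.978 TPM and CDH5 from 2.01 and 2.46 TPM to 1.23 and 1.27 TPM. In bulk RNA, fewer cells of a type and less RNA per cell cannot be told apart.

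Levels differed between the lines at a large share of genes, mostly by small amounts. In limma's moderated test on log2(TPM + 1) with Benjamini-Hochberg adjustment, 6590 genes (47.5%) passed an adjusted p of 0.05 and are referred to as called, 3338 (24.1%) higher and 3252 (23.5%) lower in PC9-BrM4. Of the called genes, 65.6% differed by less than 0.5 on the log2 scale. At least 2-fold differences were called for 253 genes higher (1.83%) and 286 lower (2.06%), and at least 4-fold differences for 47 higher and 38 lower. The log2(TPM + 1) scale understates the change of genes with low levels. At 10473 genes (75.6%) the ranges of the lines were separate, and no called gene had overlapping libraries. The median log2 difference over all tested genes was 0.0006, with quartiles at -0.21 and 0.20. Among the tested genes, 305 reached 1 TPM in both PC9 libraries and in no PC9-BrM4 library, and 178 the other way round. These genes had to differ to be included. Of the genes named below, the 305 include CEACAM3, CEACAM5, PTN, AOC1, NEO1, EPHA7, NLGN4X, TENM1, GABRE, SPDEF, LGR6, LINC01559 and CTSS. B3GNT7, NRG1, CACNA2D1 and HOXC4 are also among them. The 178 include COL6A3, SLCO2A1, SLC1A3, CYP27A1, ALDH1L2, BMP7, EDNRB, OLFML3, XYLT1, KRT81, SCNN1B, CYP1A1, LHX4, LINC00162 and H19. Counts below refer to tested members of a list and are read against the shares over all genes.

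**Figure D1:**
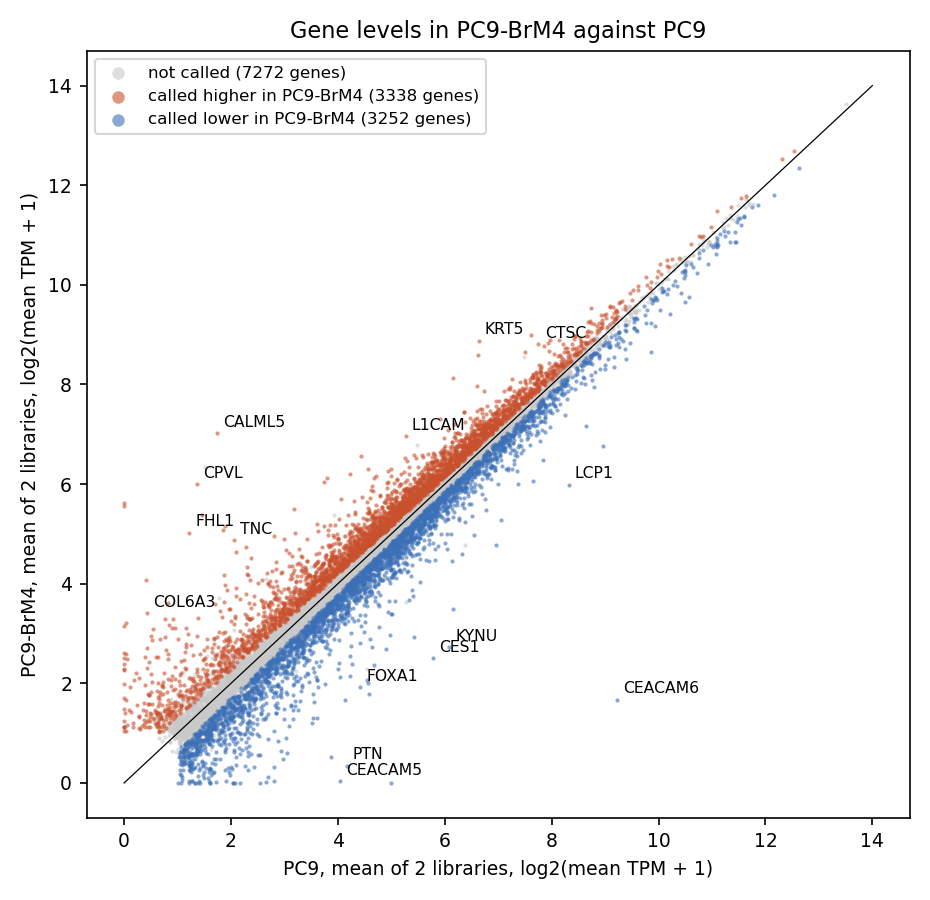
Mean level in PC9-BrM4 (vertical axis) against PC9 (horizontal axis), each as log2(mean TPM + 1) of 2 libraries, for the 13862 tested genes, with 3338 called higher in orange and 3252 called lower in blue. Most genes lie close to the diagonal, and CEACAM6 lies farthest from it on the side of the falls.

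The largest difference of any gene named was the fall of CEACAM6, a carcinoembryonic antigen family glycoprotein anchored in the outer membrane of epithelial cells (chr19:41755520-41772208, hg38). It stood at 602 and 589.8 TPM in PC9 and at 2.16 and 2.22 TPM in PC9-BrM4. The log2 difference was -7.55 with a standard error of 0.072 (limma adjusted p = 1.91e-09). CEACAM5, the carcinoembryonic antigen itself (chr19:41708585-41730421), begins 46.9 kb from CEACAM6 on the same strand. It stood at 15.4 and 15.3 TPM in PC9 and at 0 and 0.0426 TPM in PC9-BrM4, a log2 difference of -4.002 ± 0.10 (standard error; limma adjusted p = 3.2e-07). Both genes went from a clear level in each PC9 library to near absence in each PC9-BrM4 library. The other family members tested, CEACAM1, CEACAM3 and CEACAM19, looked at after these values were seen, were called lower too; CEACAM3, which starts further along the same chromosome, stood at 5.61 and 4.997 TPM and 0.0237 and 0 TPM. CEACAM5 and CEACAM3 reached 1 TPM only in PC9 and had to differ to be included. The family members are similar in sequence, so how reads were divided between them is uncertain.

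The stretches upstream of these neighbours are shown because both genes fell and both stretches carry the same hexamer at nearly the same distance from the RefSeq start. Each is the 250 bases before the RefSeq gene start (GRCh38.p14, plus strand), 5′ to 3′, with the hexamer CACGTG, a form of E-box, in capitals. CACGTG is its own reverse complement, so it stands on both strands. The CEACAM5 stretch is chr19:41708376-41708625 and the CEACAM6 stretch is chr19:41755280-41755529.
CEACAM5: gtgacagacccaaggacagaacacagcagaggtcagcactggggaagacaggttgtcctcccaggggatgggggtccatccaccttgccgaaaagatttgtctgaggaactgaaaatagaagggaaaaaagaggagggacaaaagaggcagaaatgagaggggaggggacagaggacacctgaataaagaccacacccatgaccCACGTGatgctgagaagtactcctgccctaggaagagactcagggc
CEACAM6: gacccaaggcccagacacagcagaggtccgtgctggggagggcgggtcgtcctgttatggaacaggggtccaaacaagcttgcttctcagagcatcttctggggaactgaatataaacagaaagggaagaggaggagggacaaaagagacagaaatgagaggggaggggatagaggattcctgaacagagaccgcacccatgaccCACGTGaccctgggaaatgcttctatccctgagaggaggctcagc
The hexamer spans bases 46 to 41 before the RefSeq start in CEACAM5 and bases 45 to 40 in CEACAM6. In the abundance data the genes start at 41708585 and 41755520, inside the printed stretches. The near-equal distances therefore hold for the RefSeq starts alone. In a global alignment the stretches were identical at 78.5% of 242 aligned bases, with 16 gap positions. Of 27305 RefSeq promoters, 6.49% held CACGTG in the same window. The pair and the hexamer were picked after a search of 25 genes, 20 of them in the promoter table, for 4 motifs on both strands. These were the AP-1 motif, spelled TGANTCA, the motif of TEAD factors, spelled GGAATG, the E-box above and the TATA box, spelled TATAAA. In that search 15 of the 20 genes held none of the motifs, the TEAD motif stood upstream of CALML5 and MUC4, and the TATA box upstream of CEACAM6 and KYNU. A match is a description of these letters and not of a bound site.

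The other large falls covered a secreted growth factor, several enzymes and proteins of the epithelial surface. PTN, pleiotrophin, a heparin-binding growth factor (chr7:137227346-137343800), stood at 16.7 and 17.1 TPM in PC9 and 0.260 and 0.286 TPM in PC9-BrM4 (log2 -3.82, limma adjusted p = 1.99e-07). KYNU, kynureninase, an enzyme of tryptophan breakdown (chr2:142877626-143042316), stood at 68.9 and 64.7 TPM and 5.29 and 6.01 TPM (log2 -3.35, limma adjusted p = 3.2e-07). In both genes the PC9-BrM4 libraries lay far below the lower PC9 library. Ranked genes had to have separate libraries. Of the 15 largest falls, those of CEACAM5, PTN and AOC1 were of genes that reached 1 TPM only in PC9. These genes had to differ to enter the comparison. The next falls were of enzymes. AOC1, the diamine oxidase that degrades histamine and putrescine, fell from 13.3 and 13.999 TPM to 0.344 and 0.544 TPM. CES1, a carboxylesterase that hydrolyses drugs and lipid esters, fell from 55.5 and 52.6 TPM to 4.51 and 4.80 TPM. DIO2, the deiodinase that activates thyroid hormone, fell from 23.3 and 22.5 TPM to 2.03 and 2.83 TPM, in a shifted window of chromosome 14. No library of one line lay within the range of the other in these 3 enzymes, which was a condition for being ranked. EEF1A2, a tissue-restricted translation elongation factor, fell from 70.4 and 69.9 TPM to 9.43 and 10.97 TPM. LCP1, the actin-bundling protein plastin, was the most abundant of these after CEACAM6 and fell from 322 and 314 TPM to 60.6 and 64.5 TPM (log2 -2.33). FOXA1, a pioneer transcription factor of endoderm-derived epithelia, fell from 20.3 and 20.3 TPM to 2.50 and 3.07 TPM. Its PC9 libraries differed little from each other. COL17A1, a transmembrane collagen of hemidesmosomes, fell from 22.1 and 22.3 TPM to 2.83 and 3.55 TPM. MUC4, a membrane mucin, fell from 10.1 and 10.6 TPM to 1.07 and 1.51 TPM. SCEL, the cornified envelope protein sciellin, fell from 42.7 and 41.7 TPM to 6.52 and 6.66 TPM. The remaining members of the 15 largest falls were TMEM156, a membrane protein, at 22.1 and 23.1 TPM against 3.35 and 2.71 TPM, and PKIB, an inhibitor of protein kinase A, at 15.8 and 17.2 TPM against 2.31 and 2.06 TPM. Adjusted p-values of these 15 genes in limma ran from 1.91e-09 to 4.28e-06.

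Most of the largest rises were of genes that were low in PC9. CALML5, a calmodulin relative made in differentiating skin cells (chr10:5498695-5499570), stood at 2.11 and 2.57 TPM in PC9 and 122 and 138 TPM in PC9-BrM4 (log2 5.29 ± 0.11, standard error; limma adjusted p = 1.7e-07). CPVL, a serine carboxypeptidase (chr7:28995631-29146537), stood at 1.55 and 1.61 TPM and 66.3 and 59.7 TPM (log2 4.63, limma adjusted p = 1.7e-07). Both were near the level of the expression filter in PC9 and far above it in each PC9-BrM4 library. ANKRD35, an ankyrin repeat protein, rose from 1.54 and 1.99 TPM to 39.3 and 42.4 TPM. FHL1, a LIM-domain protein of muscle and of focal adhesions, rose from 1.27 and 1.38 TPM to 31.9 and 31.3 TPM. NUPR1, a stress-induced nuclear protein, rose from 2.68 and 2.68 TPM to 38.6 and 30.3 TPM. These 3 genes had narrow replicate ranges beside the distance between the lines. OLFML3, a secreted olfactomedin-domain protein, rose from 0.390 and 0.279 TPM to 14.6 and 16.9 TPM. TNC, tenascin C, a matrix glycoprotein of developing and injured tissue, rose from 3.33 and 2.93 TPM to 25.6 and 31.4 TPM. XYLT1, which adds the first sugar of glycosaminoglycan chains, rose from 0.752 and 0.805 TPM to 10.2 and 12.2 TPM. The products of these 3 genes are secreted or act on secreted proteins. OLFML3 and XYLT1 reached 1 TPM only in PC9-BrM4 and had to differ to be included. SUSD2, a sushi-domain membrane protein, rose from 2.64 and 2.60 TPM to 30.1 and 35.3 TPM. GJA5, a connexin of gap junctions, rose from 4.02 and 3.70 TPM to 25.9 and 25.1 TPM. PARM1, a mucin-like membrane protein, rose from 2.57 and 2.69 TPM to 16.5 and 17.8 TPM. The next 3 started from higher levels. ARRB1, a beta-arrestin that uncouples and internalises receptors, rose from 12.8 and 12.8 TPM to 65.6 and 71.1 TPM. FERMT2, a kindlin that activates integrins, rose from 13.005 and 11.9 TPM to 65.8 and 63.1 TPM. SPHK1, a sphingosine kinase, rose from 7.38 and 8.85 TPM to 44.7 and 43.9 TPM. KRT5 is described with the keratins. Adjusted p-values of these 15 genes in limma ran from 1.7e-07 to 4.98e-06. The models UGT1A8, UGT1A10 and RAB43 among the rises and ISY1-RAB43 among the falls share sequence with other models on the same strand and were not ranked.

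**Figure D2:**
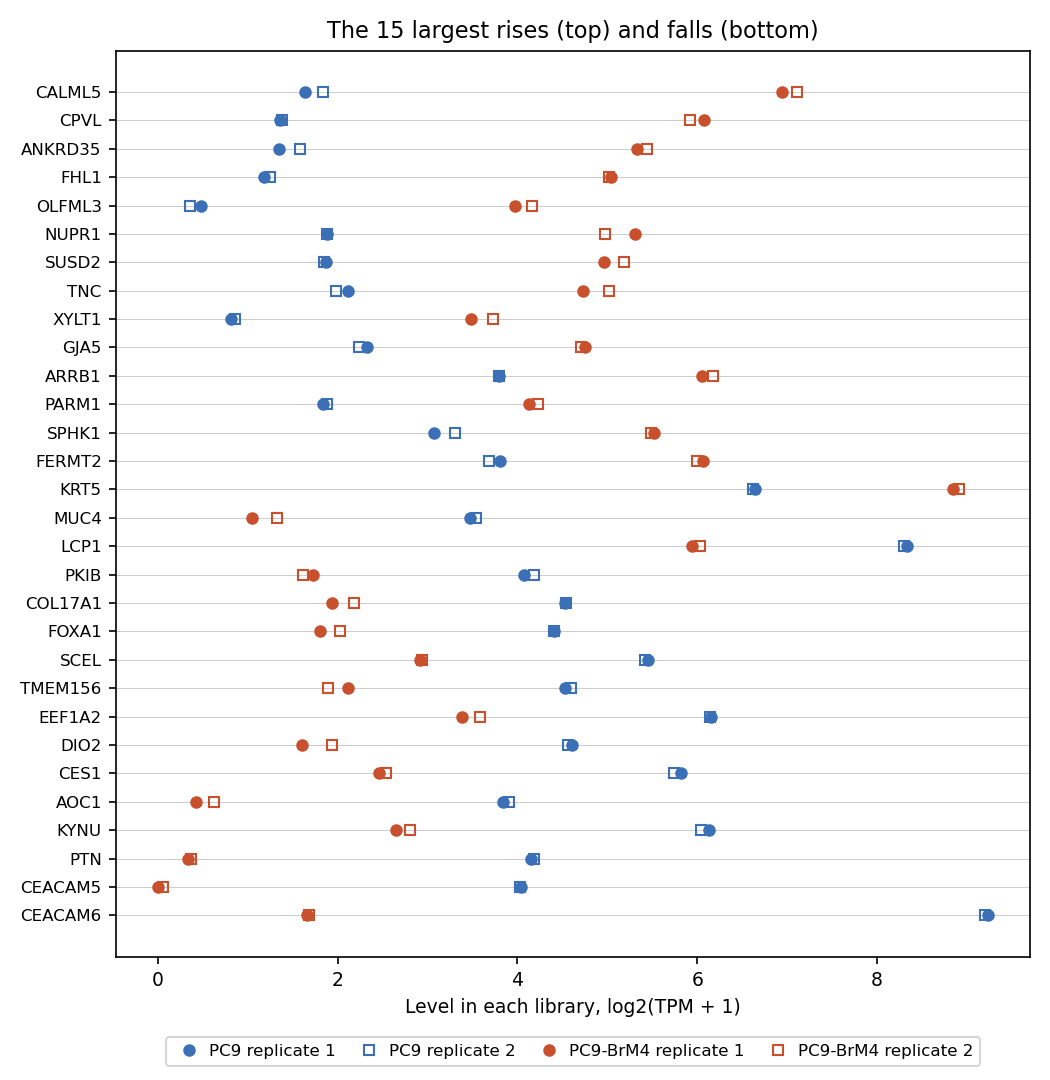
Level in each library, as log2(TPM + 1) on the horizontal axis, of the 15 genes with the largest rises (top) and the 15 with the largest falls (bottom), with PC9 in blue, PC9-BrM4 in orange, circles for replicate 1 and squares for replicate 2. The rows run from CALML5 (log2 difference 5.29) to CEACAM6 (-7.55). Both symbols of one line stand clear of both symbols of the other in every row, which the choice of these genes required.

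The keratins that rose were low or middling in PC9, and the 4 most abundant fell. Of 55 keratin genes listed, 20 were at 0 in all 4 libraries, 14 were below the filter and 21 were tested; 9 were called higher (42.9%, against 24.1% of all genes) and 10 lower (47.6%, against 23.5%), with a median log2 difference of -0.21. KRT5, the keratin of basal cells in layered epithelia (chr12:52514575-52520459), stood at 98.7 and 97.7 TPM in PC9 and 460.4 and 480.2 TPM in PC9-BrM4 (log2 2.25, limma adjusted p = 1.7e-07). KRT14, its filament partner in basal cells, stood at 1.21 and 1.92 TPM and 6.94 and 6.52 TPM (log2 1.60, limma adjusted p = 8.78e-05). The pair rose together, from levels that differed widely, and KRT14 remained a minor transcript beside KRT5. KRT6A, a keratin of activated squamous cells, rose from 141 and 148 TPM to 229.8 and 246 TPM. Its near-identical relatives KRT6B, at 21.2 and 24.4 TPM against 42.8 and 47.5 TPM, and KRT6C, at 22.7 and 23.2 TPM against 41.9 and 41.5 TPM, rose as well, although reads may be shared among the 3 genes. KRT17, another keratin of activated cells, rose from 20.8 and 20.2 TPM to 33.8 and 31.5 TPM. In contrast to KRT17, its close relative KRT16 fell from 29.9 and 28.1 TPM to 20.7 and 20.0 TPM, so the keratins of activated epidermis did not all move one way. KRT14, KRT16 and KRT17 also resemble each other in sequence. KRT81, a hair keratin, rose from 0.675 and 0.743 TPM to 8.64 and 8.86 TPM (log2 2.51).

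The keratins of simple epithelia, which were the abundant ones, were lower. KRT8 stood at 3721 and 3748 TPM in PC9 and 3085 and 3119 TPM in PC9-BrM4, and its partner KRT18 at 3026 and 2922 TPM and 2292 and 2421 TPM. KRT7 fell from 2781 and 2842 TPM to 1863 and 1829.6 TPM and KRT19 from 1879.6 and 1989.9 TPM to 1363 and 1371 TPM. The log2 differences were -0.27, -0.34, -0.61 and -0.50 in that order (limma adjusted p = 0.00168, 0.000634, 5.73e-05 and 7.7e-05). These 4 transcripts were the most abundant keratins of both lines, above KRT5 and KRT13. KRT13, a keratin of layered epithelia without a horny layer, stood at 399.6 and 394 TPM and 361 and 325 TPM and was called lower, a call lost when PC9 replicate 1 (limma adjusted p = 0.1), PC9 replicate 2 (0.0764) or PC9-BrM4 replicate 2 (0.139) was left out and under 6 of 13 alternatives in all (limma adjusted p = 0.0152 to 0.139). KRT15, a keratin of basal and stem-like epithelial cells, fell from 29.6 and 32.5 TPM to 18.1 and 19.4 TPM, opposite to KRT5 and KRT14. KRT75, a hair follicle keratin, was not called; its levels were 1.27 and 1.23 TPM in PC9 and 0 and 1.73 TPM in PC9-BrM4, and without PC9-BrM4 replicate 2 it passed the test (limma adjusted p = 0.0449, against 0.0449 to 0.604 over 12 alternatives). The KRT5 group and the KRT7 and KRT8 group lie side by side on chromosome 12, in a stretch where most genes were lower in PC9-BrM4 (described with the chromosomes). There, 13 keratins were tested, with 7 higher and 4 lower. The 8 keratins tested on chromosome 17 lie outside that stretch, and 2 of them rose and 6 fell. They lie in the chromosome 17 window from 40 to 50 Mb, which was also lowered, with a median of -0.2103. In that window 75 of 155 tested genes were called lower and 9 higher. The part of either region in the keratin changes was not tested.

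**Figure D3:**
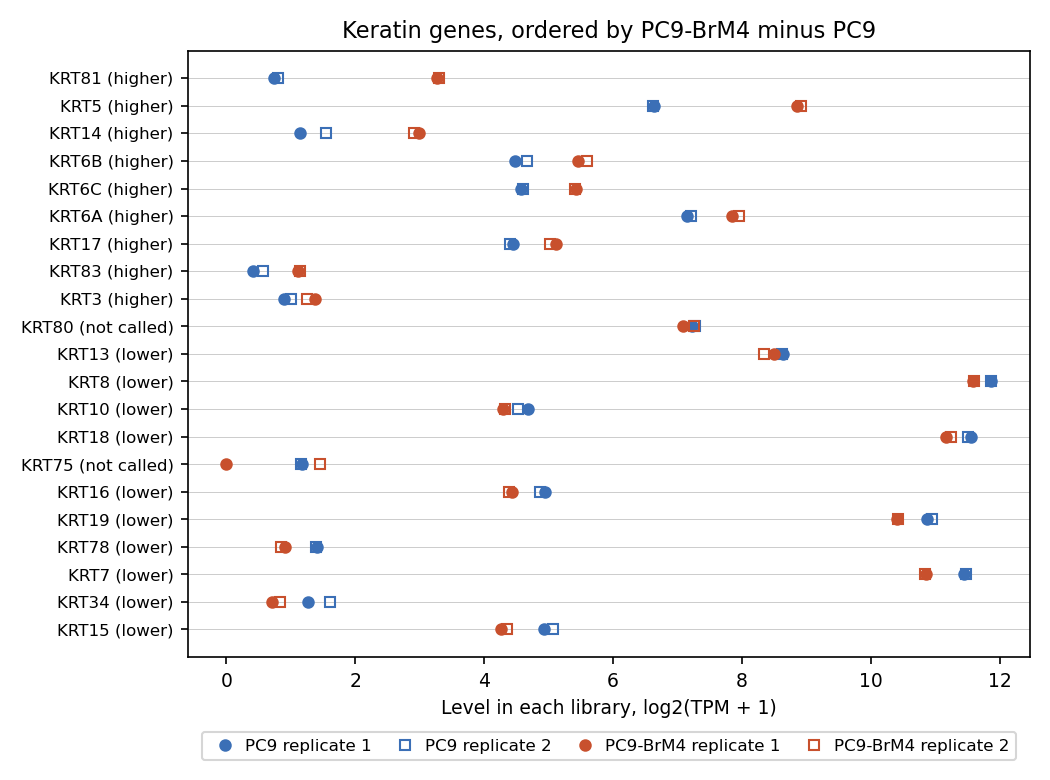
Level of each of the 21 tested keratins in each library, as log2(TPM + 1) on the horizontal axis, ordered by the difference between the lines, with PC9 in blue, PC9-BrM4 in orange, circles for replicate 1 and squares for replicate 2. KRT81 and KRT5 stand at the top with log2 differences of 2.51 and 2.25, and the abundant keratins KRT8, KRT18, KRT19 and KRT7 stand in the lower part with PC9 to the right.

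Genes of late squamous differentiation, which build the cornified envelope of epidermis, showed no common direction. Of 33 listed genes 17 were tested, with 7 called higher (41.2%), 6 lower (35.3%) and 4 not called (median 0.05). The shares over all genes were 24.1% higher and 23.5% lower. The rise of CALML5 and the fall of SCEL were the largest in each direction. KLK7 and KLK5 are kallikrein proteases that shed dead cells from the skin. KLK7 rose from 138 and 137 TPM to 236 and 231 TPM and KLK5 from 561 and 581 TPM to 695 and 694 TPM. Their neighbours KLK8, at 49.6 and 46.0 TPM against 39.4 and 34.8 TPM, and KLK10, at 14.3 and 15.4 TPM against 8.63 and 8.77 TPM, fell. All 5 kallikreins tested were called, 2 higher and 3 lower, within 1 cluster on chromosome 19. EVPL, the envelope protein envoplakin, rose from 36.8 and 37.7 TPM to 46.7 and 59.0 TPM. SPRR1A, a cross-linked envelope protein, fell from 3.01 and 3.03 TPM to 1.39 and 1.47 TPM.

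Junction genes moved in both directions. Among 36 tight junction genes, 19 were tested, with 5 higher (26.3%) and 6 lower (31.6%) and a median of 0.03. The shares over all genes were 24.1% higher and 23.5% lower. CLDN3, a sealing claudin, stood at 9.23 and 7.98 TPM in PC9 and 17.4 and 23.1 TPM in PC9-BrM4 and rose. CLDN12 fell from 47.5 and 42.1 TPM to 22.9 and 23.2 TPM and CLDN1, the claudin of epidermal barriers, from 43.2 and 43.4 TPM to 30.8 and 28.8 TPM. Without PC9 replicate 1 the count of tight junction genes called lower was 3, and without PC9 replicate 2 that called higher was 3. Among 48 cadherin and desmosome genes, 18 were tested, with 7 higher and 7 lower (38.9% each, median 0.03). CDH2, the neural cadherin that also marks mesenchymal cells, fell from 9.31 and 8.53 TPM to 2.60 and 2.59 TPM (log2 -1.46, limma adjusted p = 1.74e-05). CDH3, the placental cadherin of basal epithelial cells, rose from 44.0 and 44.4 TPM to 56.7 and 55.5 TPM. The epithelial cadherin CDH1 stood at 80.6 and 78.9 TPM and 87.0 and 94.8 TPM and was called higher in limma (adjusted p = 0.0268). The call was lost without PC9 replicate 1 (limma adjusted p = 0.0843), without PC9 replicate 2 (0.13) or without PC9-BrM4 replicate 2 (0.123), and under 6 of 13 alternatives in all (limma adjusted p = 0.0131 to 0.13). Of the desmosome proteins, the cadherin DSG2 fell from 111 and 109 TPM to 66.4 and 75.2 TPM and the plakophilin PKP3 rose from 77.7 and 80.5 TPM to 111 and 125 TPM. Without PC9 replicate 2, or without PC9-BrM4 replicate 2, 3 members of this list were called higher.

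Among integrins, laminins and collagens, 39 of 82 listed genes were tested (median -0.05). Of these, 10 were higher (25.6%, against 24.1% of all genes) and 13 lower (33.3%, against 23.5%). COL6A3, a collagen VI chain (chr2:237324012-237414207), showed the largest rise of the list. It stood at 0.377 and 0.324 TPM in PC9 and 8.51 and 10.8 TPM in PC9-BrM4 (log2 2.97, limma adjusted p = 3.99e-06). It reached 1 TPM only in PC9-BrM4 and had to differ to be included. COL6A2, another collagen VI chain, rose from 20.1 and 19.5 TPM to 32.1 and 39.1 TPM, and COL18A1, a basement membrane collagen, from 55.4 and 54.9 TPM to 81.9 and 104 TPM. COL6A2, COL18A1 and the leukocyte integrin ITGB2 lie at the end of chromosome 21, in a window where most genes were higher. The laminin chains LAMB3, at 115 and 118 TPM against 74.7 and 83.0 TPM, and LAMA3, at 104 and 108 TPM against 68.7 and 80.9 TPM, fell. ITGB4, the integrin of hemidesmosomes, which fasten epithelial cells to laminin, fell from 175 and 182 TPM to 126 and 149.6 TPM. ITGA5, a fibronectin receptor chain, fell from 22.0 and 21.8 TPM to 11.4 and 13.2 TPM, within the shifted stretch of chromosome 12. ITGA3, a laminin receptor chain, rose from 270.2 and 277 TPM to 324 and 359 TPM, and ITGB1, the commonest partner, stood at 511 and 493 TPM and 475 and 494 TPM and was not called.

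Mediators of brain metastasis named in the literature were split as well. Of 28 listed genes 18 were tested, with 6 higher (33.3%), 5 lower (27.8%) and 7 not called (median -0.02). The shares over all genes were 24.1% higher and 23.5% lower. Part of that literature used PC9 and its brain-metastatic derivatives, so its direction is not independent evidence. L1CAM (chrX:153861514-153886174), the adhesion molecule described above, stood at 37.3 and 37.9 TPM in PC9 and 112 and 136 TPM in PC9-BrM4 (log2 1.69, limma adjusted p = 5.8e-06). ST6GALNAC5, a brain sialyltransferase linked to crossing of the blood-brain barrier, stood at 1.25 and 0.623 TPM and 3.96 and 4.12 TPM (log2 1.40, limma adjusted p = 0.000316). Both were higher in each PC9-BrM4 library than in either PC9 library, as was every gene called higher. The plasmin system moved in mixed directions. The activator PLAT rose from 39.8 and 38.8 TPM to 57.4 and 56.7 TPM, and the activator PLAU fell from 208 and 209 TPM to 126 and 124.3 TPM. The neural inhibitor SERPINI1 stood at 2.86 and 3.92 TPM and 2.90 and 3.12 TPM, with overlapping libraries (limma adjusted p = 0.475), and SERPINE2, a protease nexin, at 269 and 264 TPM and 270.2 and 269.7 TPM. Neither was called, and SERPINB2 was below the filter. CTSS, a cathepsin reported to open tight junctions of brain vessels, fell from 1.73 and 1.39 TPM to 0.538 and 0.683 TPM. DKK1, a secreted Wnt inhibitor, fell from 189 and 186 TPM to 122 and 123.3 TPM. PCDH7, a protocadherin that joins carcinoma cells to astrocytes, stood at 18.4 and 17.5 TPM and 14.2 and 14.6 TPM and was called lower, a call lost on leaving out PC9 replicate 1 (limma adjusted p = 0.0927, against 0.00404 to 0.0927 over 13 alternatives). VEGFA, the vascular growth factor, stood at 77.5 and 75.4 TPM and 89.6 and 89.5 TPM and was called higher, a call that ended without any 1 of the 4 libraries (limma adjusted p = 0.0898, 0.14, 0.118 and 0.121) and under 7 of 13 alternatives in all (limma adjusted p = 0.00666 to 0.14). HBEGF, an EGFR ligand at 29.3 and 30.1 TPM against 32.2 and 30.6 TPM, PTGS2, the inducible cyclooxygenase at 1.60 and 1.45 TPM against 1.08 and 0.834 TPM, and LEF1, a Wnt effector at 2.59 and 2.29 TPM against 2.08 and 1.91 TPM, were not called. With the replicate number as a block PTGS2 passed the test as lower (limma adjusted p = 0.0494, against 0.0494 to 0.251 over 12 alternatives). GJA1 and HOXB9 were below the filter. Without PC9 replicate 1, without PC9 replicate 2 or without PC9-BrM4 replicate 2, 3 genes of the list were called higher.

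Axon guidance genes, which steer growing neurites and are used by many epithelial tumors, had strong movers in both directions. Of 74 listed genes 44 were tested, with 11 higher and 14 lower (median -0.05). Among the ligands, SEMA3A, a repellent semaphorin, fell from 8.67 and 8.37 TPM to 1.81 and 1.70 TPM and NTN4, a netrin of basement membranes, from 41.5 and 40.2 TPM to 13.96 and 13.2 TPM. SLIT2, a repellent that signals through ROBO receptors, rose from 7.44 and 7.27 TPM to 13.7 and 14.3 TPM. The ligands thus did not share a direction. Among the receptors, EPHA4 rose from 8.999 and 8.34 TPM to 23.7 and 26.0 TPM and UNC5A, a netrin receptor, from 8.57 and 8.23 TPM to 18.8 and 21.1 TPM. NEO1, another netrin and RGM receptor, fell from 4.01 and 4.41 TPM to 0.505 and 0.486 TPM (log2 -1.80, limma adjusted p = 9.94e-06). EPHA7 fell from 1.95 and 2.15 TPM to 0.203 and 0.255 TPM. NEO1 and EPHA7 reached 1 TPM only in PC9 and had to differ to be included. EPHA2, the most abundant receptor of the list, stood at 123.9 and 129 TPM and 125 and 132 TPM and was not called. SEMA3A lies in a shifted window of chromosome 7. In the absence of PC9 replicate 1, of PC9 replicate 2 or of PC9-BrM4 replicate 2, 7 members were called higher.

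Neural adhesion genes were mostly lower. Of the 14 tested, 2 were higher (14.3%, against 24.1% of all genes), L1CAM among them. Called lower were 9 (64.3%, against 23.5%), and 3 were not called. Their median was -0.54, against 0.0006 over all genes. NLGN4X, a synaptic neuroligin, stood at 3.47 and 3.47 TPM in PC9 and was listed at 0 in both PC9-BrM4 libraries. TENM1, a teneurin, fell from 2.96 and 2.78 TPM to 0.210 and 0.261 TPM. NLGN4X and TENM1 reached 1 TPM only in PC9 and had to differ to be included. ALCAM, an immunoglobulin-family adhesion molecule also found on epithelia, was the most abundant and fell from 233 and 222 TPM to 86.1 and 89.8 TPM (log2 -1.36, limma adjusted p = 5.3e-06). L1CAM moved against these 3, from 37.3 and 37.9 TPM to 112 and 136 TPM. Of the 19 tested genes of vesicle release, 6 were higher (31.6%) and 2 lower (10.5%), with a median of 0.16. SYT8, a synaptotagmin, rose from 5.89 and 7.10 TPM to 11.2 and 13.2 TPM and STX1A, a syntaxin of the plasma membrane, fell from 22.5 and 22.9 TPM to 11.8 and 13.1 TPM. Over both groups 8 of 33 were higher (24.2%) and 11 lower (33.3%). Fewer were higher without PC9 replicate 1 or without PC9 replicate 2. Of the neuronal markers given above, RBFOX3, NEFM and STMN2 were listed at 0, while TUBB3 was called higher and MAP2 lower.

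Ion channels moved in both directions in each class. Of 242 listed genes 103 were at 0 in all 4 libraries and 63 were tested (median -0.03). Of the tested, 20 were higher (31.7%, against 24.1% of all genes) and 18 lower (28.6%, against 23.5%). Of 34 chloride, TRP and ligand-gated channels 14 were higher and 7 lower, of 19 potassium channels 3 were higher and 6 lower, and of 10 sodium and calcium channels 3 were higher and 5 lower. CHRNB1, a nicotinic acetylcholine receptor subunit, rose from 34.0 and 33.1 TPM to 67.2 and 67.8 TPM (log2 0.99). CLIC3, an intracellular chloride channel protein, rose from 9.12 and 10.3 TPM to 29.6 and 27.9 TPM. CACNG6, an accessory calcium channel subunit, rose from 2.75 and 2.19 TPM to 9.69 and 10.2 TPM. The calcium-selective channel TRPV6 rose too, from 3.70 and 3.90 TPM to 9.37 and 9.56 TPM, while its relative TRPV4 fell from 3.64 and 3.35 TPM to 0.855 and 1.13 TPM. GABRE, a GABA receptor subunit, fell from 4.33 and 3.70 TPM to 0.168 and 0.230 TPM. KCNS3, a modifier of voltage-gated potassium channels, fell from 45.2 and 46.0 TPM to 15.1 and 15.5 TPM. SCNN1A, the alpha subunit of the epithelial sodium channel, fell from 269.7 and 280.4 TPM to 172 and 183 TPM, and the beta subunit SCNN1B rose from 0.788 and 0.907 TPM to 3.36 and 3.02 TPM. The subunits of this channel therefore moved in opposite directions, with SCNN1A the more abundant in both lines.

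Growth factor ligands had called shares above those of all genes in both directions. Of 103 listed ligands 46 were tested, with 20 higher (43.5%, against 24.1%) and 18 lower (39.1%, against 23.5%), and a median of 0.11. In the TGF-beta family 4 of 12 were higher and 7 lower. INHBA, the activin A subunit, fell from 23.5 and 24.6 TPM to 5.52 and 5.80 TPM (log2 -1.91, limma adjusted p = 4.16e-06) and TGFB2 from 44.5 and 42.4 TPM to 23.3 and 22.8 TPM. INHBB, the activin B subunit, rose from 69.5 and 67.1 TPM to 99.3 and 105 TPM, so the activin subunits moved apart. BMP7, a bone morphogenetic protein, rose from 0.0951 and 0.0776 TPM to 2.55 and 3.09 TPM. Of the 9 tested ligands of EGFR and its relatives 2 were higher and 3 lower. TGFA rose from 53.9 and 53.2 TPM to 78.4 and 81.6 TPM and EPGN, epigen, from 6.92 and 7.06 TPM to 13.6 and 14.2 TPM, both of which bind EGFR. EGF itself, another EGFR ligand, stood at 8.96 and 8.12 TPM and 6.21 and 6.62 TPM and was called lower (log2 -0.36, limma adjusted p = 0.0151), a call lost on leaving out PC9 replicate 1 (0.103) or PC9-BrM4 replicate 1 (0.0682), against 0.00628 to 0.103 over 13 alternatives. The neuregulins NRG4 and NRG1, which bind ERBB4, fell. NRG4 stood at 6.2 and 6.26 TPM against 1.87 and 2.24 TPM, and NRG1 at 3.19 and 2.63 TPM against 0.847 and 0.583 TPM. Of the other 25 ligands 14 were higher and 8 lower. WNT7A, a Wnt ligand that acts on brain vessels in development, rose from 14.1 and 16.3 TPM to 35.1 and 41.4 TPM and PGF, a VEGF-family ligand, from 5.83 and 5.36 TPM to 13.9 and 14.9 TPM. VEGFC, a lymphatic growth factor, fell from 16.0 and 16.6 TPM to 8.34 and 8.13 TPM. MDK, midkine, the only relative of PTN, was abundant and fell from 291 and 285 TPM to 231 and 218 TPM.

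Of 58 listed growth factor receptors 37 were tested (median -0.09), with fewer lower when PC9 replicate 1 was left out. With all libraries 10 were higher (27.0%, against 24.1% of all genes) and 9 lower (24.3%, against 23.5%). FGFR3, a fibroblast growth factor receptor, rose from 5.64 and 5.13 TPM to 16.5 and 18.5 TPM (log2 1.54, limma adjusted p = 1.7e-05) and FGFR1 from 1.55 and 1.33 TPM to 2.95 and 3.29 TPM. EGFR, the driver of this line, stood at 178 and 159.5 TPM and 224 and 303 TPM. It was called higher, but the PC9-BrM4 libraries lay far apart, and the call was lost on leaving out PC9 replicate 2 (limma adjusted p = 0.0502) or PC9-BrM4 replicate 2 (0.0672), and under 3 of 13 alternatives in all (limma adjusted p = 0.00503 to 0.0672). ERBB3, the kinase-impaired partner of EGFR, fell from 47.0 and 44.4 TPM to 28.7 and 29.8 TPM, and ERBB2 was not called, at 46.8 and 46.8 TPM and 42.6 and 44.9 TPM. ERBB3 and the activin receptor ACVR1B, at 6.62 and 6.72 TPM against 4.01 and 4.07 TPM, lie in the shifted stretch of chromosome 12, and MET, the hepatocyte growth factor receptor, at 208 and 196 TPM against 146 and 159 TPM, in a shifted window of chromosome 7. Without the shifted windows 10 receptors were higher and 6 lower of 33. AXL, a receptor of GAS6, fell from 185 and 189 TPM to 151 and 161 TPM.

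G protein-coupled receptors were called lower more often than higher. Of 222 listed genes 84 were at 0 in all 4 libraries and 68 were tested, with 12 higher (17.6%, against 24.1%) and 25 lower (36.8%, against 23.5%; median -0.09). The strongest risers were peptide receptors. EDNRB, an endothelin receptor (chr13:77895481-77975529), had 0 and 0.0381 TPM in PC9 against 8.51 and 7.89 TPM in PC9-BrM4 (limma adjusted p = 8.34e-07). NTSR1, the neurotensin receptor, rose from 3.81 and 4.03 TPM to 15.9 and 18.8 TPM and OXTR, the oxytocin receptor, from 2.20 and 2.30 TPM to 10.8 and 11.2 TPM. In all 3 the libraries of the lines were well separated, but EDNRB reached 1 TPM only in PC9-BrM4 and had to differ to be included. LGR6, a stem cell receptor for R-spondins, fell from 6.97 and 7.64 TPM to 0.512 and 0.522 TPM (log2 -2.45). It reached 1 TPM only in PC9, so it too had to differ to be included. ACKR3, a scavenging receptor for the chemokine CXCL12, fell from 22.9 and 26.5 TPM to 3.89 and 4.50 TPM (log2 -2.31). GPRC5A, the most abundant receptor of the list and a retinoic acid-induced gene of lung epithelium, fell from 310.3 and 313 TPM to 203 and 215 TPM. Of the 10 adhesion-class receptors tested none was called higher and 4 were called lower by limma, with 6 not called (at an unadjusted p under 0.05, 1 higher and 4 lower). Among them ADGRF5, a regulator of lung surfactant, fell from 27.4 and 24.9 TPM to 7.59 and 7.96 TPM.

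Among solute carriers, the membrane transporters of nutrients and ions, 60 of 188 tested genes were higher (31.9%) and 38 lower (20.2%), with a median of 0.05; 346 were listed. SLCO2A1, a prostaglandin transporter, rose from 0.381 and 0.514 TPM to 7.45 and 7.70 TPM (log2 2.57, limma adjusted p = 3.04e-06). The glutamate and aspartate transporters SLC1A6, at 1.05 and 0.658 TPM against 8.07 and 7.11 TPM, and SLC1A3, at 0.464 and 0.628 TPM against 4.71 and 4.82 TPM, rose as well. SLCO2A1 and SLC1A3 reached 1 TPM only in PC9-BrM4 and had to differ to be included. SLC1A3 is a glial transporter in brain. Of 6 astrocyte markers 3 were at 0 in all 4 libraries and GFAP was near 0. The 1 tested, ALDH1L1, was not called, and the markers summed to at most 17.2 TPM in any library. A relation of SLC1A3 to these markers was not tested. SLC2A10, a facilitative glucose transporter, fell from 18.5 and 17.9 TPM to 4.37 and 4.14 TPM. SLC44A4, a choline and thiamine pyrophosphate transporter, fell from 11.3 and 11.2 TPM to 3.21 and 3.17 TPM. Without PC9 replicate 1, or without PC9 replicate 2, 25 solute carriers were called lower.

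Drug and xenobiotic enzymes were lower more often than higher. Of 208 listed genes 112 were tested, with 25 higher (22.3%) and 42 lower (37.5%, against 23.5%; median -0.12). The conjugating and hydrolysing enzymes split 4 higher and 16 lower of 32, those of oxidation and reduction 12 and 21 of 55, and the ABC transporters 9 and 5 of 25. AKR1B10, an aldo-keto reductase of retinal and lipid aldehydes, fell from 516 and 478 TPM to 110.1 and 106 TPM (log2 -2.19, limma adjusted p = 2.66e-07). Its neighbour AKR1B15 fell from 28.8 and 28.9 TPM to 5.84 and 5.14 TPM; the genes are near copies, so the division of reads between them is uncertain. AKR1C3, a steroid and prostaglandin reductase, fell from 2204 and 2132 TPM to 1616 and 1522 TPM and remained among the most abundant enzymes. CYP27A1, a sterol hydroxylase of mitochondria, rose from 0.237 and 0.375 TPM to 4.90 and 4.60 TPM, and CYP1A1, a target of the aryl hydrocarbon receptor, from 0.753 and 0.545 TPM to 2.50 and 3.08 TPM. ALDH1L2, the mitochondrial folate dehydrogenase, rose from 0.409 and 0.414 TPM to 3.28 and 3.77 TPM. ABCC4, an exporter of cyclic nucleotides and drugs, rose from 23.9 and 22.9 TPM to 49.9 and 53.1 TPM. UGT1A6, a glucuronosyltransferase whose model overlaps 4 others, stood at 402 and 487 TPM and 291 and 203 TPM and was called lower, a call lost on leaving out PC9 replicate 2 (limma adjusted p = 0.0948) or PC9-BrM4 replicate 2 (0.163), and under 4 of 13 alternatives in all (limma adjusted p = 0.00873 to 0.163). GSTP1, an abundant glutathione transferase, stood at 2129.6 and 2248 TPM and 2054 and 1851 TPM; its call as lower was lost on leaving out PC9 replicate 1 (limma adjusted p = 0.0728), PC9 replicate 2 (0.233) or PC9-BrM4 replicate 2 (0.258), and under 10 of 13 alternatives in all (limma adjusted p = 0.0207 to 0.813), and its sign turned with quantile normalization (log2 0.01).

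Of 16 listed genes of the pathway of KYNU, tryptophan breakdown, 10 were tested, with 1 higher (10%, against 24.1%) and 2 lower (20%, against 23.5%). Without PC9-BrM4 replicate 2 these counts were 2 and 1, and without PC9 replicate 2 the count lower was 1. The called members beside KYNU were CYP1A1, placed in this list as a target of the aryl hydrocarbon receptor that kynurenine activates, and CCBL1, a kynurenine aminotransferase. CCBL1 stood at 25.1 and 28.2 TPM and 23.1 and 19.03 TPM, and its call as lower was lost on leaving out PC9 replicate 2 (limma adjusted p = 0.153) or PC9-BrM4 replicate 2 (0.138), and under 3 of 13 alternatives in all (limma adjusted p = 0.0111 to 0.153). QPRT, the enzyme that feeds the pathway into NAD synthesis, was abundant at 243 and 234.2 TPM and 254 and 253 TPM and was not called. CPVL rose in a group where more genes were lower. Of 25 tested lysosomal proteases and their relatives and inhibitors 5 were higher and 14 lower (56%, against 23.5%; median -0.19). CTSC, a dipeptidyl peptidase that activates granule proteases, rose from 215 and 214 TPM to 454 and 445 TPM (log2 1.06, limma adjusted p = 1.52e-06). CTSV, at 60.1 and 59.2 TPM against 31.5 and 30.7 TPM, CTSF, at 17.2 and 17.7 TPM against 9.39 and 9.21 TPM, and CTSD, at 882 and 876 TPM against 689 and 745 TPM, are cathepsins that fell.

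Glycosyltransferases, which build the sugar chains of surface proteins, had 65 tested of 87 listed (median -0.06). Of the tested, 16 were higher (24.6%, against 24.1% of all genes) and 22 lower (33.8%, against 23.5%). Of 13 sialyltransferases 6 were higher and 3 lower. ST6GALNAC4 rose from 20.7 and 20.2 TPM to 32.6 and 34.9 TPM and ST3GAL4 from 58.5 and 58.1 TPM to 75.1 and 79.2 TPM, while ST6GALNAC6 fell from 13.5 and 14.3 TPM to 8.09 and 9.02 TPM. The rises of ST6GALNAC4 and ST3GAL4 were of genes with higher levels than the brain enzyme ST6GALNAC5. Of 40 enzymes that start, extend or branch chains 9 were higher and 16 lower. GCNT1, which branches mucin-type chains, fell from 15.2 and 15.2 TPM to 4.36 and 4.30 TPM (log2 -1.60). B3GNT7, which extends keratan sulfate and related chains, fell from 3.995 and 3.98 TPM to 0.912 and 0.807 TPM. MGAT5, which adds a branch to N-linked chains, rose from 27.7 and 26.8 TPM to 41.2 and 49.2 TPM. Without PC9-BrM4 replicate 2 the count of glycosyltransferases called higher was 10.

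Developmental transcription factors other than HOX genes were balanced, with 102 tested (211 listed, median 0.0046). Of the tested, 30 were higher (29.4%, against 24.1% of all genes) and 28 lower (27.5%, against 23.5%). Of 52 SOX, FOX, GATA and related factors 19 were higher and 11 lower. Of 50 KLF, ETS and related factors 11 were higher and 17 lower. Some factors of lung and airway epithelium were among those that fell. Beside FOXA1, GATA6, a factor of distal lung, fell from 5.98 and 6.13 TPM to 1.82 and 2.06 TPM, FOXJ1, the factor of ciliated cells, from 9.66 and 9.34 TPM to 3.12 and 3.73 TPM, and SPDEF, the factor of goblet cells, from 3.02 and 2.86 TPM to 0.125 and 0.104 TPM. EHF, an epithelial ETS factor, fell from 103 and 99.1 TPM to 59.2 and 61.7 TPM. These were picked out after the list's values were known. ID1, an inhibitor of basic helix-loop-helix factors and a target of BMP signals, fell from 69.5 and 69.3 TPM to 19.7 and 22.4 TPM (log2 -1.68), and TEAD2, a partner of YAP, from 41.5 and 40.9 TPM to 12.6 and 12.5 TPM. LHX4, a LIM homeobox factor of the pituitary and motor neurons, rose from 0.756 and 0.451 TPM to 5.84 and 7.003 TPM (log2 2.21). GATA2 rose from 12.5 and 13.7 TPM to 33.05 and 32.8 TPM, LHX1 from 3.03 and 3.36 TPM to 8.68 and 9.84 TPM and TWIST2, a mesenchymal factor, from 4.32 and 3.53 TPM to 8.46 and 9.54 TPM. SOX9, a progenitor factor of lung, stood at 35.0 and 35.1 TPM and 43.0 and 43.6 TPM and was called higher, a call that ended without any 1 of the 4 libraries (limma adjusted p = 0.0637 to 0.0799) and under 5 of 13 alternatives in all (limma adjusted p = 0.00412 to 0.0799). REST, a repressor of neuronal genes, was not called, at 12.5 and 11.6 TPM and 9.89 and 9.94 TPM. It passed as lower in the fit without the PC9-AMG libraries (limma adjusted p = 0.0359). It also passed with median centring (limma adjusted p = 0.0412), quantile normalization (0.0437) and FPKM (0.0295). Under 9 of 13 alternatives it was not called.

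The HOX genes, which carry positional identity, were the list with the largest share lower. Of 39 listed 10 were at 0 in all 4 libraries and 12 were tested, with none called higher and 9 called lower by limma (75%, against 23.5%; median -0.48). At an unadjusted p under 0.05 the counts were 0 higher and 9 lower. HOXC8 stood at 4.05 and 3.98 TPM in PC9 and 1.28 and 1.34 TPM in PC9-BrM4, and HOXC9 at 3.03 and 3.24 TPM and 1.27 and 1.42 TPM. HOXC6, at 4.75 and 4.49 TPM against 0.634 and 1.29 TPM, and HOXC4, at 2.34 and 2.70 TPM against 0.632 and 0.740 TPM, share exons and are uncertain. The 5 tested HOXC genes, all lower, lie in the shifted stretch of chromosome 12. The 4 tested HOXB genes on chromosome 17 were also lower, with HOXB7 the most abundant at 44.0 and 46.3 TPM against 31.8 and 29.99 TPM, and log2 differences from -0.53 to -0.39. The 3 HOXA genes tested on chromosome 7 were not called, with log2 differences from -0.06 to 0.10, and HOXA3 at 14.5 and 15.4 TPM against 14.1 and 14.5 TPM. The HOXB genes lie in the chromosome 17 window from 40 to 50 Mb, which had a median of -0.2103. In that window 75 of 155 tested genes were called lower and 9 higher. The clusters differed in how many members were called, a difference that was not tested.

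Chromatin regulators and zinc finger genes had called shares below those of all genes in both directions. Of 95 tested chromatin regulators 16 were higher and 16 lower (16.8% each), with none at least 2-fold in either direction. KDM1B, a histone demethylase, rose from 16.7 and 16.5 TPM to 30.1 and 30.3 TPM and KDM6A, the demethylase UTX, fell from 8.84 and 7.87 TPM to 5.12 and 5.52 TPM. The remodelling subunit SMARCC2, at 33.9 and 32.6 TPM against 20.1 and 21.7 TPM, fell within the shifted stretch of chromosome 12. Without PC9 replicate 1 the counts were 10 higher and 7 lower, and 9 were lower without PC9 replicate 2 or without PC9-BrM4 replicate 1. Of 429 tested ZNF genes 59 were higher (13.8%) and 61 lower (14.2%), with a median of -0.0069. ZNF598, a sensor of collided ribosomes, rose from 37.4 and 36.8 TPM to 80.4 and 102 TPM and ZNF853 from 14.5 and 14.5 TPM to 33.7 and 36.8 TPM. The ZNF counts depended on single libraries, with 39 higher without PC9 replicate 1, 34 without PC9 replicate 2, and 35 when PC9-BrM4 replicate 2 was left out. The counts lower were 17 without PC9 replicate 1, 30 without PC9 replicate 2, against 24 when PC9-BrM4 replicate 1 was left out.

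In the cytoskeleton, LIM-domain proteins moved in both directions. Of 34 tested LIM-domain genes 8 were higher (23.5%, against 24.1% of all genes) and 10 lower (29.4%, against 23.5%), with a median of -0.05. Beside FHL1, CRIP2 rose from 32.7 and 28.8 TPM to 67.9 and 73.3 TPM and its neighbour CRIP1 fell from 310.2 and 299 TPM to 174 and 158 TPM, both small LIM proteins. CSRP2, a LIM protein of smooth muscle, fell from 10.6 and 10.7 TPM to 2.72 and 2.18 TPM within the shifted stretch of chromosome 12. Without PC9 replicate 1 the count higher was 4, and it was 5 without PC9 replicate 2 or without PC9-BrM4 replicate 2. TPM2, a tropomyosin that stabilises actin filaments, rose from 19.1 and 16.5 TPM to 77.3 and 68.0 TPM (log2 1.97, limma adjusted p = 5.44e-06); here the gene symbol and the unit share their letters. VIM, the mesenchymal filament protein, stood at 33.9 and 34.0 TPM and 27.3 and 26.1 TPM and was called lower, a call that ended without PC9-BrM4 replicate 2 (limma adjusted p = 0.0508, against 0.00412 to 0.0508 over 13 alternatives).

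The ribosomes of the cytosol and of mitochondria differed in direction by count. Of 77 tested mitochondrial ribosomal protein genes 36 were higher (46.8%, against 24.1%) and 6 lower (7.79%, against 23.5%), with a median of 0.15. MRPL12 rose from 185 and 174 TPM to 254 and 289 TPM and MRPL34 from 56.6 and 49.2 TPM to 74.9 and 80.7 TPM. The changes were small, none at least 2-fold, and MRPL42 was among the falls, at 44.8 and 44.9 TPM against 33.6 and 33.5 TPM. Of 85 tested cytosolic ribosomal protein genes 5 were higher (5.88%) and 31 lower (36.5%), with a median of -0.10. RPS26 fell from 115 and 115 TPM to 65.6 and 69.8 TPM and RPL41 from 937 and 1017 TPM to 598 and 558 TPM, and both lie in the shifted stretch of chromosome 12. Outside the shifted windows RPL23 fell from 1718 and 1632 TPM to 1270.3 and 1142 TPM and RPL36 rose from 1116 and 1179.5 TPM to 1491 and 1417 TPM. The cytosolic count higher depended on the scaling and was 14 with quantile normalization. The count lower was 17 without PC9 replicate 2, against 15 when PC9-BrM4 replicate 2 was left out, where 3 were higher. The mitochondrial count lower was 2 without PC9 replicate 1, against 3 when PC9-BrM4 replicate 2 was left out. Of 83 respiratory chain subunits 16 were higher (19.3%, against 24.1%) and 22 lower (26.5%, against 23.5%), with a median of -0.06. ATP5D, of ATP synthase, rose from 75.04 and 71.7 TPM to 116 and 118 TPM, and NDUFA5, of complex I, fell from 35.6 and 34.1 TPM to 18.7 and 18.3 TPM in a shifted window of chromosome 7. Without PC9 replicate 1, 8 subunits were higher, and 11 were lower without PC9 replicate 2, against 10 when PC9-BrM4 replicate 2 was left out.

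Among named noncoding RNAs 449 of 1914 listed were tested, with 70 higher (15.6%) and 98 lower (21.8%; median -0.04). LINC00162 was at 3.73 and 3.92 TPM in PC9-BrM4, while each PC9 library lists it at 0. H19, an imprinted RNA of fetal tissue, had 0.0229 and 0 TPM in PC9 against 1.71 and 1.55 TPM in PC9-BrM4. LINC01269 fell from 10.7 and 10.5 TPM to 1.503 and 1.43 TPM (log2 -2.23) and LINC01559 from 4.72 and 4.95 TPM to 0.416 and 0.520 TPM. In all 4 RNAs the ranges of the lines were separate, at low levels. LINC00162 and H19 reached 1 TPM only in PC9-BrM4 and LINC01559 only in PC9, so these had to differ to be included.

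**Figure D4:**
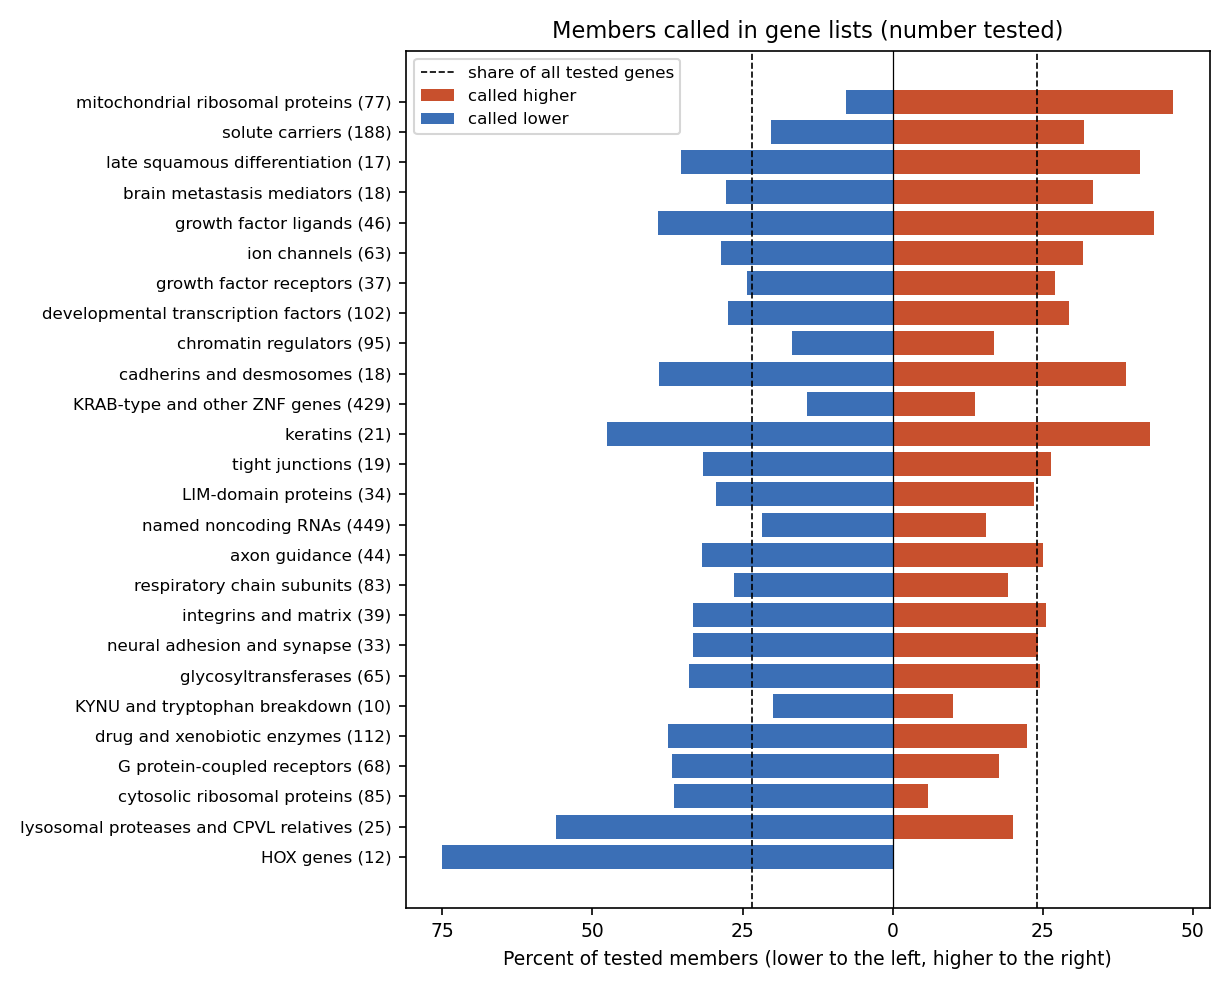
Percent of the tested members of gene lists called higher (orange, to the right) or lower (blue, to the left) in PC9-BrM4, with the number tested in brackets and dashed lines at the shares over all 13862 genes, 24.1% and 23.5%. Mitochondrial ribosomal proteins reach farthest to the right at 46.8% and HOX genes farthest to the left at 75%.

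Called genes were not spread evenly along the chromosomes. In 287 windows of 10 Mb with at least 10 tested genes, the median of the absolute window medians was 0.0703. In 13 windows the median log2 difference was beyond 0.3 in size, 12 of them below 0 and 1 above; this mark was chosen with the values known. The longest run was on chromosome 12 from 40 to 90 Mb, which held 274 tested genes, 253 of them (92.3%) below 0; 217 were called lower and 13 higher, and the median was -0.48. It holds KRT7, KRT8, KRT18, ERBB3, ITGA5, SMARCC2, RPS26, RPL41 and the HOXC cluster. KRT5, KRT81 and the KRT6 genes rose within it. The rest of chromosome 12 had a median of -0.07 over 449 genes but was uneven. Its windows from 10 to 40 Mb and from 90 to 100 Mb had medians of -0.2614 to -0.2261. The window from 0 to 10 Mb stood at -0.1338, and those from 100 to 140 Mb at 0.0078 to 0.0988. Windows of chromosome 7 that start at 80, 90, 110 and 120 Mb held 129 tested genes with 90 called lower and 2 higher, a median of -0.39. MET, SEMA3A, CLDN12 and CACNA2D1, a calcium channel subunit at 3.13 and 3.22 TPM against 0.496 and 0.666 TPM, lie there. On chromosome 13 from 30 to 50 Mb, 49 of 77 tested genes were called lower and 6 higher, among the lower ones LCP1. The 1 window with a median above 0.3 was the end of chromosome 21, from 40 to 50 Mb. Of its 47 tested genes 27 were called higher and 1 lower, a median of 0.34. Chromosome 16 from 0 to 10 Mb fell just short of the mark, at 0.2912, with 96 of 164 tested genes called higher and 10 lower.

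The 12 lowered windows held 3.56% of the tested genes, 11.2% of the genes called lower and 11.9% of those at least 2-fold lower. Outside all 13 windows, 3290 of 13322 genes were called higher and 2887 lower. Outside the windows 2 of 8 keratins were higher and 6 lower, and 4 of 7 HOX genes were lower. These 8 keratins and 4 HOX genes all lie in the chromosome 17 window from 40 to 50 Mb. Its median of -0.2103 was below 0 but within the mark of 0.3. Mitochondrial ribosomal proteins stood outside the 13 windows at 36 higher and 5 lower of 76, and cytosolic ribosomal proteins at 5 higher and 29 lower of 83. CEACAM5 and CEACAM6 lie in a window of chromosome 19 with a median of -0.07, CALML5 in a window at 0.07 and L1CAM in a window at 0.16. The differences of these genes were larger than the medians of their windows.

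**Figure D5:**
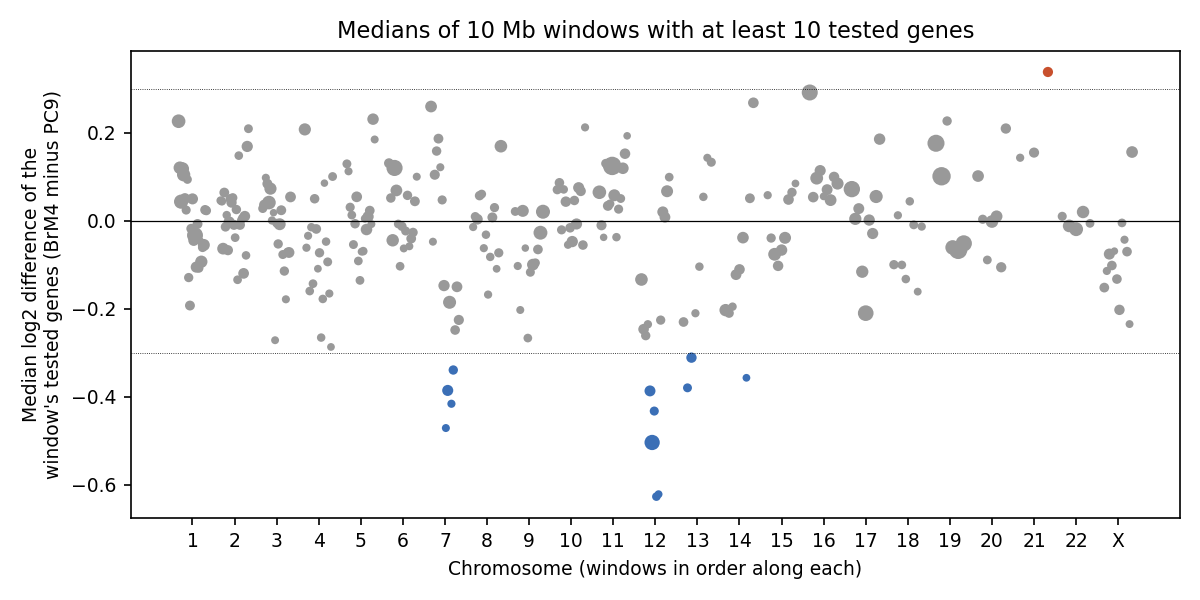
Median log2 difference (PC9-BrM4 minus PC9) of the tested genes in each 10 Mb window, in order along each chromosome, with point size set by the number of genes and dotted lines at -0.3 and 0.3. The 12 windows in blue lie on chromosomes 7, 12, 13 and 14, and the 1 window in orange, at 0.34, lies on chromosome 21.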

How the data were processed

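RNA from 2 libraries each of PC9, PC9-BrM4 and PC9-AMG was sequenced. The authors deposited one gene abundance table per library with coverage, FPKM and TPM for each gene, per the file headers. Per the submitters' processing notes bcl2fastq, HISAT2 2.1.0, StringTie 1.3.4d and the hg38 build were used; for their roles, options and the annotation release: not given in the sources used here. These deposited TPM values were summed over the lines of one gene symbol, and the deposited FPKM values served as an alternative. The coverage signal that the authors deposited was used only, with the gene tables, to estimate aligned bases. The 6 library columns of the table of the whole series were not used.

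Genes with at least 1 TPM in at least 2 of the 4 PC9 and PC9-BrM4 libraries were tested with limma 3.58.1 (R 4.3.3) on log2(TPM + 1), with a trended prior and 1 mean per line over all 6 libraries; the PC9-AMG libraries add only to the spread. P-values were Benjamini-Hochberg adjusted over all 13862 genes and called at 0.05; the fit was tested on simulated data. A permutation of 2 against 2 libraries cannot give a two-sided p below 0.333, so none was run. TPM keeps no read depth, so no counting interval is given. The deviations of same-numbered libraries from the mean of their line had a correlation of -0.0859 across genes. With 2 libraries per line the 2 pairs mirror each other, so this cannot show whether the libraries were paired. The genes named are the 15 largest rises and falls among genes called (mean TPM 10 or more in the higher line, non-overlapping libraries and no overlapping model on the same strand, which left out 3 rises and 1 fall), for each role of each list up to 3 called members with the largest rise, up to 3 with the largest fall and the most abundant, and fixed genes. CEACAM1, CEACAM3, CEACAM19, HOXA3, HOXC9, KRT13, KRT16 to KRT19, the KRT6 genes and KRT75 were named after their values were seen. The members and the gene lists were chosen with earlier results of these data known. Promoters came from RefSeq (GRCh38.p14) and were aligned with Biopython 1.88; tables were handled with pandas 2.3.3. A planned comparison of promoter motifs was void, since 71.4% of all tested genes, 66.4% of those at least 2-fold higher and 64.0% of those at least 2-fold lower matched the table. Some listed genes and 1 gene list are not reported here.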

Additional observations from a re-analysis of the deposited data

How the results depend on the processing

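Alternatives were a pseudocount of 0.1, no filter, a filter at a mean of 5 TPM, 4 libraries only, median centring, quantile normalization, FPKM, no variance trend, a replicate block, and leaving out each library in turn. With the replicate number as a block 6121 genes were called against 6590. Whether the numbers pair the libraries could not be settled. With the filter at a mean of 5 TPM, 143 rises and 122 falls of 2-fold or more were called, from fewer genes tested. With FPKM these counts were 155 and 158, and with a pseudocount of 0.1 there were 495 such falls; the cause was not tested. Leaving out 1 library gave 4665 to 5726 genes called, 2379 to 3159 higher, 2286 to 2751 lower, 231 to 281 rises and 287 to 309 falls of 2-fold or more. Of 187 named genes called, 149 had a value under all 13 alternatives and 138 of them kept the call; the 11 that did not are CCBL1, CDH1, EGF, EGFR, GSTP1, KRT13, PCDH7, SOX9, UGT1A6, VEGFA and VIM. The other 38 were left out at the filter of 5 TPM and kept the call under the remaining 12. Signs turned for GSTP1 with quantile normalization (log2 0.013) and for genes not called: EPHA2 (-0.0293 with quantile normalization, -0.0001 with FPKM, -0.0126 to 0.0662 without 1 library), KRT75 (-1.17 to 0.28 without 1 library), SERPINE2 (-0.0335 with quantile normalization, -0.0091 with FPKM) and SERPINI1 (-0.30 to 0.0543 without 1 library). Of 54 list counts, 22 stayed within 1.5 times in every alternative. At the filter of 5 TPM, where fewer genes were tested, 5 keratins (9 without it), 5 neural genes (8), 35 noncoding RNAs (70) and 0 tryptophan genes (1) were called higher. At the same filter 3 HOX genes (9), 9 axon guidance genes (14), 3 cadherin and desmosome genes (7), 7 ion channels (18), 6 neural genes (11) and 42 noncoding RNAs (98) were called lower. With no filter, 39 ZNF genes (61), 20 cytosolic ribosomal proteins (31) and 1 tryptophan gene (2) were lower, and 5 LIM genes (8) and 7 axon guidance genes (11) higher. Quantile normalization gave 16 LIM genes lower (10) and 14 cytosolic ribosomal proteins higher (5). With no variance trend 20 cytosolic (31), 3 mitochondrial ribosomal proteins (6) and 14 respiratory subunits (22) were lower. Outside the 13 shifted windows, an alternative chosen after seeing the data, 3290 genes were called higher and 2887 lower. TPM keeps no read counts, so no interval from depth can be given for single values.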

Other observations

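Some gene models were listed at 0 in one library of a line and at 10 TPM or more in the other. There were 4 such genes in PC9, of which 3 overlap another tested model, and 3 in PC9-BrM4, of which 2 overlap another, and limma called none of them at an adjusted p of 0.05. AKR1C4, a liver steroid reductase with close relatives beside it, had the most negative log2 difference among tested genes that were not called: its PC9 libraries had 79.5 and 84.6 TPM and its PC9-BrM4 libraries 0 and 52.7 TPM (log2 -3.50, limma adjusted p = 0.167). Without PC9-BrM4 replicate 2, the library with the higher level of AKR1C4, its log2 difference was -6.37 and it was called (limma adjusted p = 0.0362), and without PC9-BrM4 replicate 1 the difference was -0.63 (limma adjusted p = 0.801), the lowest and highest of 13 alternatives. These genes were looked at after their values were seen.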
